A study of Mus musculus with 24 samples.

Results

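The transcripts of 34 genes of glycolysis and of the cellular response to low oxygen were followed through mouse peritoneum sampled as peritoneal metastasis, the growth of tumour on the lining of the abdomen. The genes were taken by name, from their standing in these pathways and not from their values, although earlier results of these data were known. The deposited transcript values were summed by gene name. All 34 were found among 56422 gene names, and all 34 belonged to the 15163 genes that reached at least 1 TPM, an abundance scaled by transcript length and to a fixed total per library, in at least 6 libraries and were tested. The series compared propionate, butyrate, a combination of both acids, and a control labelled as having no treatment, with 6 samples in each group. Both are short-chain fatty acids, which gut bacteria make from fibre, and they differ by the length of the carbon chain, which is longer in butyrate. The title of the series names mannose, ovarian cancer and anti-PD-1 therapy. The labels give neither dose, duration, mouse strain, age nor tumour line, and they do not say whether the replicates were separate animals, and every p-value therefore reflects sample-to-sample spread, which may be technical.

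Glycolysis splits glucose into pyruvate in the cytosol and yields ATP without oxygen, and lactate dehydrogenase turns that pyruvate into lactate. When oxygen is low, the prolyl hydroxylases that mark hypoxia-inducible factor (HIF) for destruction slow down, and HIF binds a short core element in DNA and raises transporters, glycolytic enzymes, angiogenic factors and its own inhibitors. Skeletal muscle runs glycolysis at a high rate with its own forms of several enzymes, whereas tumour cells and most other tissues use the general forms. The genes fall into 6 roles: 2 glucose transporters, 10 genes of upper glycolysis, 5 of lower glycolysis, 3 that set the fate of pyruvate, 3 of oxygen sensing and 11 that low oxygen induces.

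Promoter windows show how widely the HIF core element is spread over these genes. RefSeq windows of the mouse build GRCm38.p6, from 250 bases before to 50 bases after a transcription start, were found for 32 of the 34 genes, with 50 windows in all; Slc2a3 and Ndrg1 were without one. The core was searched on both strands as ACGTG or GCGTG, and the E-box CACGTG, which overlaps ACGTG, was searched as well. ACGTG lay in 27 windows (54%), against 19.6% of all 32851 windows in the RefSeq table. Either form lay in 39 windows (78%), against 43.8% of all windows, and CACGTG in 5 (10%), against 7.15%. These shares were not tested, base composition was not matched, and windows of the same gene were counted separately. At the level of genes, 30 of the 32 had either form in some window and 23 had ACGTG. No such count was made over all genes, which had 32851 windows for 27025 genes, against 50 windows for 32 here. The counts by gene therefore have no background, and more windows per gene give more places for a match. The windows of the 4 genes with the smallest p-values in the combination against control are shown, each of which a later comparison describes. Capitals mark each core match on the printed strand, where CACGT and CACGC are the matches read from the other strand. A match is a run of letters and not a measured binding site.
Adm, chr7:110627407-110627706, plus strand: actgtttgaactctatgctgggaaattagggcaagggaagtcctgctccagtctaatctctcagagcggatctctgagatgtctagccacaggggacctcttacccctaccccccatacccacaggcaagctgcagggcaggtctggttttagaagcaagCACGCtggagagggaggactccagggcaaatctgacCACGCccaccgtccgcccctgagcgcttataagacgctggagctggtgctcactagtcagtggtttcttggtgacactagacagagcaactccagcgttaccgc
Vegfa, chr17:46032328-46032627, minus strand: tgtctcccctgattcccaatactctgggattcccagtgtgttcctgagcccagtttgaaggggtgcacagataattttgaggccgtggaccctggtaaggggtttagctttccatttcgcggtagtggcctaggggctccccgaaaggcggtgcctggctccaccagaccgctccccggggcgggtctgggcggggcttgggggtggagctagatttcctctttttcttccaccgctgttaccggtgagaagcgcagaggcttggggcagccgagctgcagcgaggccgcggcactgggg
Egln3, chr12:54203825-54204124, minus strand: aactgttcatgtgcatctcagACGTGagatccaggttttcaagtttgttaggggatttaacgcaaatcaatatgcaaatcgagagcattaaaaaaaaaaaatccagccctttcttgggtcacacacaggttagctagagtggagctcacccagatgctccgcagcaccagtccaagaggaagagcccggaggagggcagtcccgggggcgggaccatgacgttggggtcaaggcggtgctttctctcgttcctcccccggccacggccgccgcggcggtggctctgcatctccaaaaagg
P4ha1, chr10:59323046-59323345, plus strand: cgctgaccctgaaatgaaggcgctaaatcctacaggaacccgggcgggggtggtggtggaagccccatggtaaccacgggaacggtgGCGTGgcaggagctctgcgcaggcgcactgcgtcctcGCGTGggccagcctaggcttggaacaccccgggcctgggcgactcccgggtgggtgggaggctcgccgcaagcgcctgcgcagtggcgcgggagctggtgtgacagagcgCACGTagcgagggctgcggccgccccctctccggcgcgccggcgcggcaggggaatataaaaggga
The Adm window held 2 matches, the Egln3 window 1 and the P4ha1 window 3. The Vegfa window, the more upstream of the windows RefSeq gives for Vegfa, held 0.

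The libraries held 12618 to 15418 genes with at least 1 TPM, and since TPM retains no read depth, the depth behind each value is unknown. Skeletal muscle was present in nearly every library: the sum of 13 of 13 muscle markers lay between 29999 and 151822 TPM with propionate, 77706 and 121451 with butyrate, 68.9 and 130875 with the combination, and 30546 and 120509 in control. Markers of mesothelium, the cell layer that lines the peritoneum, varied widely, and the sum of 6 of 6 markers lay between 19.0 and 863.8 TPM with propionate, 8.44 and 370.6 with butyrate, 14.5 and 611.5 with the combination, and 9.73 and 1058 in control. Sums of epithelial and carcinoma markers and of cycling markers tended to follow it. They were 513 and 255 TPM in control replicate 2 (1058 TPM), and 1.63 and 8.78 TPM in control replicate 3 (9.73 TPM). Cycling medians were 11.3 TPM with propionate, 25.1 with butyrate, 30.7 with the combination and 103.9 in control. Whether the mesothelium sum followed mesothelium or tumour was not tested. Combination replicate 5 stood apart: its muscle sum was the 68.9 TPM, its Acta1 (muscle actin) was at 2.52 TPM, and its adipocyte sum of 9797 TPM and leukocyte sum of 555.1 TPM were the highest of all libraries. Its mesothelium sum was 347.7 TPM, although the mesothelial marker Wt1 was listed at 0 there, and its sum of 7 epithelial and carcinoma markers was 494 TPM. For comparisons of the combination, some values are therefore also given without that library, and all others include it. In bulk tissue such as this, fewer cells of a type and less RNA per cell cannot be told apart.

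The 34 genes spanned nearly the whole range of abundance, and the glycolytic enzymes that muscle uses were at the top. Since TPM is per length, levels can be set side by side between genes. Over all 24 libraries Aldoa, the aldolase of muscle and most tissues, averaged 8972 TPM and Gapdh, which makes the NADH of glycolysis, 7365 TPM. Ldha, which encodes the lactate dehydrogenase subunit that favours lactate, followed at 1643 TPM, Tpi1 (triose phosphate isomerase) at 1469 TPM and Pkm (pyruvate kinase) at 1101 TPM. At the other end stood Car9, a carbonic anhydrase of hypoxic cells, at 1.44 TPM, Aldoc, the aldolase of brain, at 2.29 TPM, and the glucose transporter Slc2a3 at 4.21 TPM. Together the 34 genes took 2.68 ± 1.04% of all TPM with propionate, 2.43 ± 0.31% with butyrate, 2.06 ± 0.81% with the combination and 2.24 ± 0.65% in control (SD, n = 6 each). Without replicate 5 the combination share was 2.35 ± 0.48% (SD, n = 5). The spread among libraries was widest for Pfkm, the muscle phosphofructokinase, whose highest library stood 113-fold above its lowest, followed by Aldoc at 34.8-fold, Pgam1 (phosphoglycerate mutase) at 22.7-fold and Ddit4 at 20.5-fold. The place of Pfkm rests on combination replicate 5: over the other 23 libraries its spread was 6.53-fold, and Aldoc at 28.8-fold, Pgam1 at 22.7-fold and Slc2a3 at 19.5-fold were widest. Over all 24 libraries the spread was narrowest for Gpi1, glucose-6-phosphate isomerase, at 1.68-fold and for Egln1, the main oxygen-sensing prolyl hydroxylase, at 2.37-fold.

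**Figure D1:**
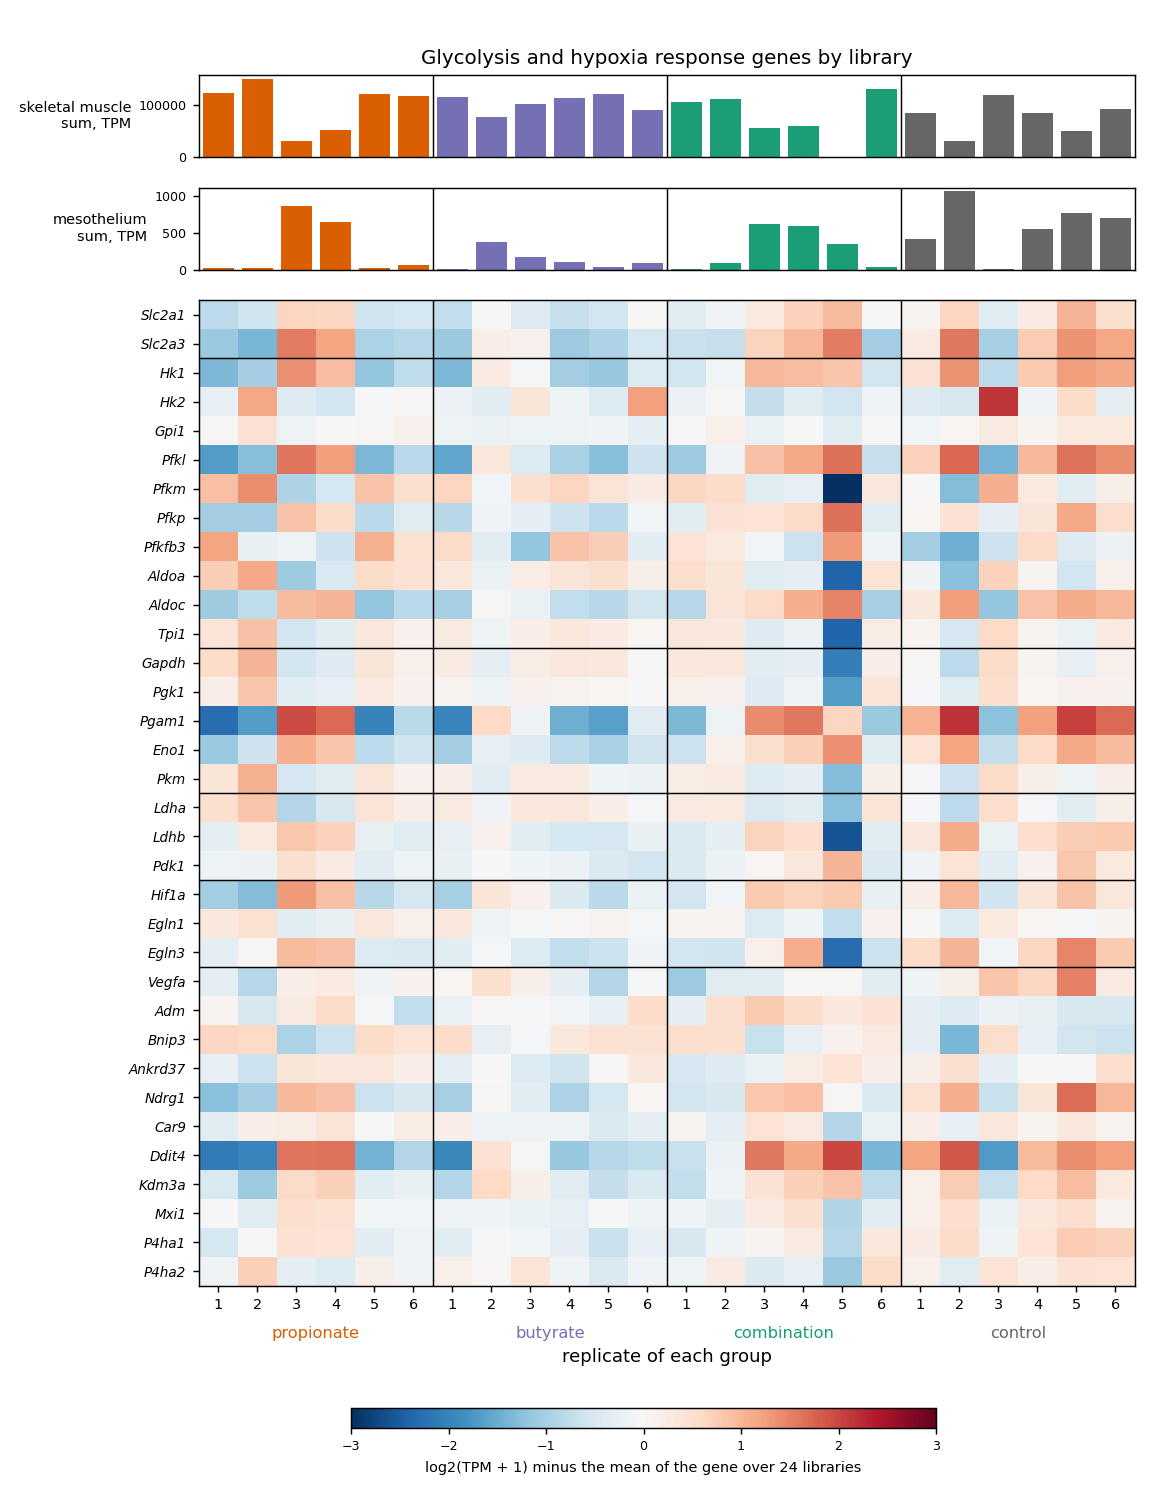
Heat map of the 34 genes (down, in order of role, roles parted by lines) in 24 libraries (across, 6 per group), as log2(TPM + 1) minus the mean of the gene over all libraries, with values beyond 3 in either direction drawn at the end of the colour scale. Bars above give the TPM sum of 13 skeletal muscle markers and of 6 mesothelium markers in each library; Pfkm, Aldoa, Tpi1, Gapdh, Pgk1, Pkm and Ldha are lowest in combination replicate 5, where the muscle sum is 68.9 TPM.

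The libraries of a group did not move as a block, and in some libraries sets of these genes ran against each other. Propionate replicate 2, with the highest muscle sum of all (151822 TPM), had the highest level of any library for Pfkm (1399 TPM), Aldoa (17689), Tpi1 (2516), Gapdh (14080), Pgk1 (911.4), Pkm (2189) and Ldha (2787). Combination replicate 5, with almost no muscle marker, had the lowest level of any library for the same 7 genes. Propionate replicates 3 and 4, with mesothelium sums of 863.8 and 650.3 TPM, showed the other side: Pgam1 stood at 407 and 340 TPM there, against 20.6 to 58.8 TPM in the other 4 propionate libraries. Ddit4, a stress-induced inhibitor of mTOR signalling, stood at 70.7 and 71.0 TPM in the same libraries, against 4.50 to 11.7 TPM in the other 4. Control replicate 3 departed from its own group in that manner, with a muscle sum of 120509 TPM and a mesothelium sum of 9.73 TPM, and it was the lowest control library for 18 of the 34 genes and the highest for 11. Pgam1 was at 43.8 TPM there, against 213.4 to 468 TPM in the other 5 control libraries, and Ddit4 at 6.2 TPM, against 44.4 to 83.7 TPM. In these libraries the muscle and mesothelium sums thus moved with the levels of the genes named. Whether this held over all libraries and all 34 genes was not tested, nor was the part of the sums in the comparisons between groups.

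Combination replicate 5 lay below the other 23 libraries for 15 of the 34 genes, above them for 6 and among them for 13. The 15 were Gpi1, Pfkm, Aldoa, Tpi1, Gapdh, Pgk1, Pkm, Ldha, Ldhb, Egln1, Egln3, Car9, Mxi1, P4ha1 and P4ha2. The 6 above were Pfkp, Pfkfb3, Aldoc, Eno1, Pdk1 and Ddit4, which include the platelet phosphofructokinase, the general enolase and the kinase that closes pyruvate dehydrogenase. Pfkm was at 12.3 TPM there and at 214.2 to 1399 TPM elsewhere, and Egln3, a prolyl hydroxylase that HIF itself induces, at 5.79 TPM against 19.0 to 90.9 TPM.

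Glucose transporters were scarce. Slc2a1, the transporter of most cells and a HIF target, had lowest, median and highest values of 3.71, 4.50 and 11.6 TPM with propionate, 3.82, 4.80 and 7.31 with butyrate, 5.44, 7.97 and 14.5 with the combination and 5.30, 9.52 and 15.4 in control. Slc2a3, a high-affinity transporter, had 0.570, 1.18 and 10.8 TPM with propionate, 0.880, 1.47 and 3.62 with butyrate, 0.980, 3.48 and 10.7 with the combination and 1.04, 7.03 and 11.1 in control. The ranges of all 4 groups overlapped for both genes, and the medians with propionate and with butyrate were the lowest. Slc2a4, the insulin-responsive transporter of muscle and fat, which is not among the 34, averaged 139.6 ± 69.0 TPM with propionate, 133 ± 24.7 with butyrate, 126 ± 34.1 with the combination and 119.7 ± 70.2 in control (SD, n = 6 each) and so stood far above both on the same per-length scale.

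Hexokinase traps glucose in the cell. Hk2, the form of muscle and of many tumours, had lowest, median and highest values of 47.5, 63.6 and 160.3 TPM with propionate, 53.0, 63.5 and 166 with butyrate, 42.6, 58.9 and 72.9 with the combination and 50.4, 61.8 and 318 in control. Hk1, the general form, had 5.41, 7.81 and 41.2 TPM with propionate, 5.40, 9.08 and 18.4 with butyrate, 10.03, 21.1 and 31.0 with the combination and 8.42, 31.1 and 40.2 in control. A single library made the top of Hk2 in 3 of the groups: propionate replicate 2 at 160.3 TPM, butyrate replicate 6 at 166.3 TPM and control replicate 3 at 318.3 TPM, whereas no combination library exceeded 72.9 TPM. Gpi1, which turns glucose-6-phosphate into fructose-6-phosphate, had 258, 293 and 384 TPM with propionate, 238, 256 and 265 with butyrate, 228, 283 and 317 with the combination and 271, 323 and 351 in control. The highest butyrate library of Gpi1 (265 TPM) lay below the lowest control library (271 TPM), and the other groups overlapped control.

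Phosphofructokinase commits sugar to glycolysis. Pfkm, the muscle form, had lowest, median and highest values of 279.5, 851 and 1399 TPM with propionate, 506, 719.9 and 837 with butyrate, 12.3, 564 and 822 with the combination and 214, 568 and 1142 in control. Pfkl, the liver form, had 4.31, 7.39 and 50.9 TPM with propionate, 4.84, 8.98 and 20.6 with butyrate, 7.07, 22.6 and 52.4 with the combination and 5.48, 38.2 and 55.1 in control. Pfkp, the platelet form, had 5.58, 8.18 and 23.5 TPM with propionate, 6.68, 9.06 and 11.9 with butyrate, 9.69, 17.3 and 41.7 with the combination and 10.1, 16.9 and 29.0 in control. Pfkm was the most abundant form in every library except combination replicate 5, where Pfkl and Pfkp stood above it, and all groups overlapped for each form. Aldoa had 3840, 11332 and 17689 TPM with propionate, 7033, 9879 and 11204 with butyrate, 1534, 8527 and 11686 with the combination and 3379, 8054 and 12982 in control, and Aldoc 0.190, 0.570 and 4.47 TPM with propionate, 0.350, 0.730 and 1.78 with butyrate, 0.360, 2.79 and 6.61 with the combination and 0.210, 4.18 and 5.47 in control. Aldoa held 99.6% or more of the summed aldolase pair in every library.

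Lower glycolysis held a pair of genes with control medians well above the others. Pgam1, the general phosphoglycerate mutase, had lowest, median and highest values of 20.6, 45.3 and 407 TPM with propionate, 25.5, 58.9 and 157 with butyrate, 39.8, 128 and 314 with the combination and 43.8, 289.6 and 468 in control. Eno1, the general enolase, had 102, 144 and 471 TPM with propionate, 106, 136 and 188 with butyrate, 142, 277 and 569 with the combination and 134, 378 and 507 in control. For both genes the control median was the highest of the 4, the combination came next, and the butyrate range met that of control in control replicate 3 alone. The muscle forms of the same steps, Pgam2 and Eno3, which are not among the 34, stood higher: Pgam2 averaged 1820 ± 940.4 TPM with propionate, 1791 ± 287 with butyrate, 1455 ± 936 with the combination and 1478 ± 723 in control, and Eno3 3121 ± 1747 TPM with propionate, 3012 ± 463 with butyrate, 2196 ± 1351 with the combination and 2372 ± 1158 in control (SD, n = 6 each). In combination replicate 5 Pgam2 was at 1.47 TPM and Eno3 at 17.3 TPM, the lowest of their group.

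Lactate dehydrogenase is built from the Ldha and Ldhb subunits, of which the second favours pyruvate. Ldha had lowest, median and highest values of 855, 1922 and 2787 TPM with propionate, 1443, 1842 and 1989 with butyrate, 658, 1552 and 2026 with the combination and 909, 1511 and 2254 in control. Ldhb had 225, 304 and 511 TPM with propionate, 200.3, 236 and 317 with butyrate, 47.2, 235 and 465 with the combination and 252, 455 and 633 in control. Control had the highest median of Ldhb, and each treated group overlapped it.

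The genes of oxygen sensing were Hif1a, the HIF subunit that oxygen controls, and the hydroxylases. Their transcripts do not measure HIF protein or oxygen sensing itself. Egln1 had lowest, median and highest values of 39.8, 58.4 and 69.0 TPM with propionate, 45.2, 49.9 and 61.6 with butyrate, 29.1, 48.6 and 54.5 with the combination and 36.8, 50.6 and 61.4 in control. Egln3 had 23.5, 29.8 and 63.7 TPM with propionate, 19.0, 24.7 and 31.3 with butyrate, 5.79, 21.2 and 70.2 with the combination and 30.4, 52.9 and 90.9 in control. Control had the highest Egln3 median, and a single control library, replicate 3 at 30.4 TPM, reached below the highest butyrate library at 31.3 TPM. Hif1a lay between 7.67 and 50.2 TPM over all libraries.

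Of the 11 genes that low oxygen induces, 7 had their highest median in control (Vegfa, Ndrg1, Ddit4, Kdm3a, Mxi1, P4ha1 and P4ha2), 2 their lowest (Adm and Bnip3), and 2 neither (Ankrd37 and Car9). Most tested genes lay below control as well: 79.3% with propionate, 78.8% with butyrate and 65.9% with the combination had a log2 fold change below 0. The share of all genes with their highest median in control was not taken, so the count is no result about these genes. Vegfa, the vascular endothelial growth factor, had lowest, median and highest values of 49.6, 91.9 and 108 TPM with propionate, 48.3, 90.1 and 127 with butyrate, 41.6, 71.2 and 92.8 with the combination and 83.1, 123 and 257 in control. P4ha1, a subunit of the enzyme that hydroxylates collagen, had 23.0, 31.7 and 45.4 TPM with propionate, 20.7, 27.9 and 32.5 with butyrate, 18.3, 33.1 and 42.6 with the combination and 30.5, 47.7 and 57.9 in control. Ndrg1, a stress-response gene and HIF target, had 19.96, 32.8 and 97.3 TPM with propionate, 24.1, 36.6 and 51.2 with butyrate, 33.1, 43.0 and 92.7 with the combination and 30.5, 82.8 and 158 in control. For each of these genes every treated group overlapped control, and the lowest library of all was a treated one. Adm, which encodes the vasodilator peptide adrenomedullin, had its lowest median in control, with 2.64, 5.22 and 8.11 TPM with propionate, 4.15, 4.86 and 8.01 with butyrate, 4.10, 7.37 and 9.51 with the combination and 3.37, 3.87 and 4.45 in control. A single combination library, replicate 1 at 4.10 TPM, fell within the control range, and the other 5 lay above all control libraries. P4ha2, the partner of P4ha1, had 12.8, 16.2 and 28.9 TPM with propionate, 12.6, 16.9 and 22.9 with butyrate, 7.49, 15.1 and 25.7 with the combination and 13.3, 21.9 and 23.7 in control, and Car9 0.890, 1.77 and 2.10 TPM with propionate, 0.760, 1.16 and 1.72 with butyrate, 0.290, 1.30 and 2.16 with the combination and 1.01, 1.67 and 1.98 in control, with groups that overlapped throughout.

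**Figure D2:**
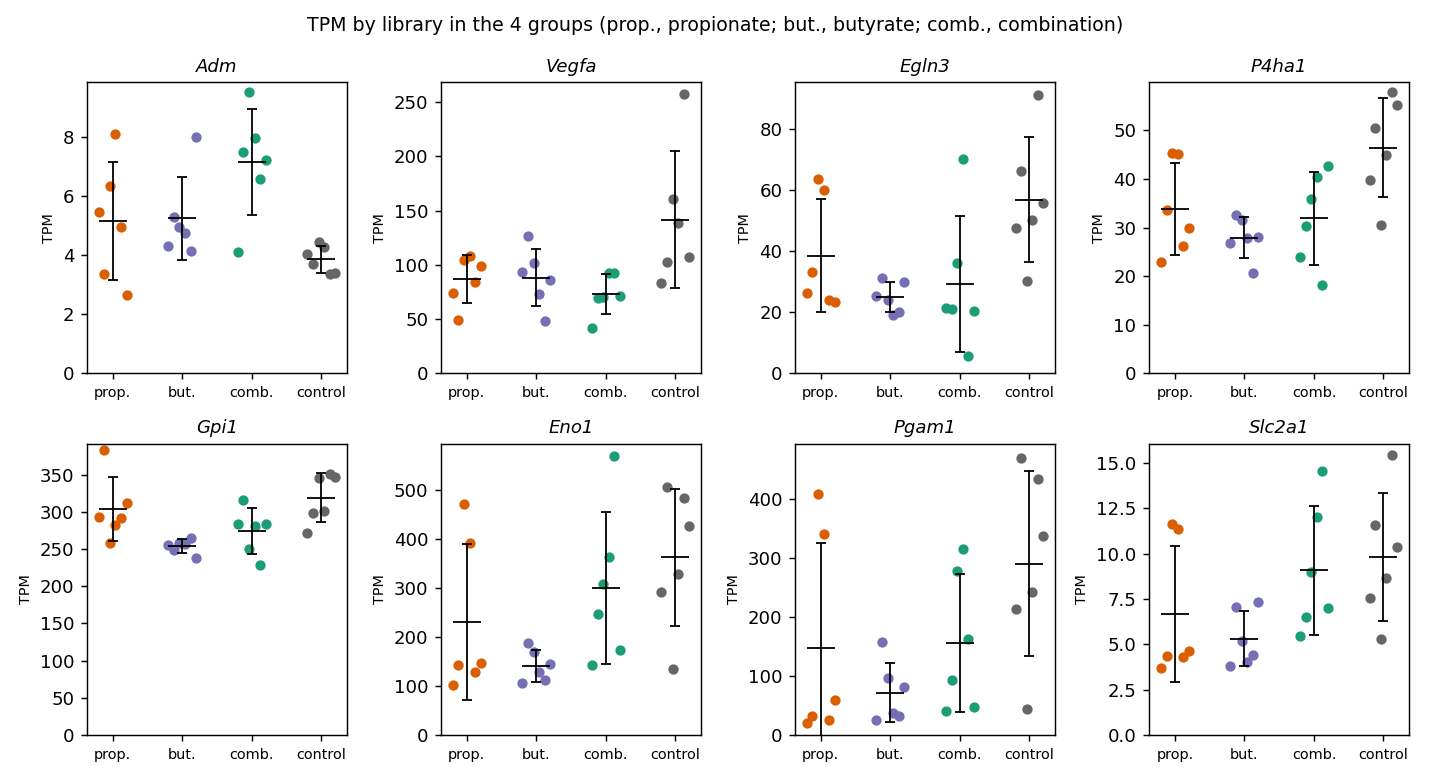
TPM (vertical axis, linear, from 0) of 8 of the genes in each library, by group (propionate, butyrate, combination, control). Points are libraries, the horizontal line is the mean and the bar 1 SD (n = 6); the butyrate points of Gpi1 lie below all control points, and 5 of the 6 combination points of Adm lie above all control points.

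With propionate alone, none of the 34 genes passed, and those with the smallest p-values lay below control: Vegfa at a log2 fold change of -0.65 ± 0.27 (SE), Ndrg1 at -0.91 ± 0.41, P4ha1 at -0.46 ± 0.21 and Pgam1 at -1.67 ± 0.76. Their unadjusted p-values were 0.0239, 0.0367, 0.0385 and 0.0386, and in limma, with Benjamini-Hochberg adjustment over 15163 genes, each had an adjusted p of 0.333 (n = 6 per group). Propionate values exceeded control in 7 of 36 pairs of libraries for Vegfa and P4ha1, 8 for Ndrg1 and 9 for Pgam1. At an unadjusted p under 0.05, 5 of the 34 were lower and 0 higher, where 9.13% and 0.435% of all tested genes were; at an adjusted p under 0.05 both counts were 0, as over all genes (0%). Of the 34, 23 lay below 0, as did 79.3% of all genes, and their median of -0.24 stood beside -0.30 for all genes. By role, glucose transporters lay between -0.95 (Slc2a3) and -0.56 (Slc2a1), upper glycolysis between -1.21 (Pfkl) and 0.81 (Pfkfb3, a kinase that makes the activator of phosphofructokinase), and lower glycolysis between -1.67 (Pgam1) and 0.22 (Gapdh). Pyruvate fate ran from -0.40 (Ldhb) to 0.17 (Ldha), oxygen sensing from -0.61 (Hif1a) to 0.13 (Egln1), and the hypoxia-induced genes from -1.34 (Ddit4) to 0.53 (Bnip3, a mitophagy receptor). The median of the 34 turned positive, at 0.13, after median-of-ratios scaling, in which the median of all genes was 0.01, and was -0.01 after quantile normalization; with median-of-ratios scaling Vegfa was at -0.27, Ndrg1 at -0.54, P4ha1 at -0.09 and Pgam1 at -1.30, and with quantile normalization at -0.39, -0.61, -0.15 and -1.41. Single libraries moved the count of genes under an unadjusted 0.05: it was 15 of the 34 without propionate replicate 3 or 4, 13 without control replicate 3 and 8 without combination replicate 5. It was 3 without control replicate 4, 2 without propionate replicate 2 or 6, 1 without propionate replicate 1 or 5 or control replicate 2 or 6, and 0 without control replicate 5. The share of all genes under an unadjusted 0.05 is not given for fits without a library, here or in later comparisons. Such counts may follow all genes and are no result about the 34.

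With butyrate alone, the smallest p-values belonged to P4ha1 at a log2 fold change of -0.70 ± 0.21 (SE), Eno1 at -1.26 ± 0.39, Gpi1 at -0.32 ± 0.11 and Egln3 at -1.10 ± 0.39, all below control. Their unadjusted p-values were 0.00281, 0.0038, 0.00673 and 0.01, and each had an adjusted p of 0.115 in limma (n = 6 per group). Butyrate exceeded control in 2, 3, 0 and 1 of 36 pairs of libraries for these 4 genes, in that order. At an unadjusted p under 0.05, 16 of the 34 were lower and 1 higher, where 35.1% and 1.19% of all tested genes were, and 0 passed the adjusted threshold in either direction, as over all genes (0%). The higher one was Bnip3, at 0.69 ± 0.30, with a mean of 157 ± 32.3 TPM with butyrate and 103 ± 45.4 TPM in control (SD). Groups did not overlap for 1 of the 34, Gpi1 on the lower side, which was so for 1.82% of all genes. In this comparison 25 of the 34 lay below 0, as did 78.8% of all genes, and their median was -0.42 beside -0.38. The extremes by role were -1.24 (Slc2a3) and -0.75 (Slc2a1) in uptake, -1.58 (Pfkl) and 0.58 (Pfkfb3) in upper glycolysis, and -1.98 (Pgam1) and 0.17 (Gapdh) in lower glycolysis. They were -0.84 (Ldhb) and 0.24 (Ldha) in pyruvate fate, -1.10 (Egln3) and 0.05 (Egln1) in oxygen sensing, and -1.53 (Ddit4) and 0.69 (Bnip3) among the hypoxia-induced genes. Without control replicate 3, the control library rich in muscle markers and poor in mesothelium markers, 13 of the 34 passed as lower and 1 as higher, where 37.3% of all genes passed. With the replicate number in the library names as a block, which the labels do not say marks a shared animal or batch, 18 passed as lower and 1 as higher, where 52.1% of all genes passed. The 17 with an unadjusted p under 0.05 became 9 without butyrate replicate 5 or control replicate 5, 10 without butyrate replicate 1 and 11 without butyrate replicate 4 or control replicate 2 or 6. After median-of-ratios scaling Gpi1 turned to 0.15, P4ha1 was at -0.24 (adjusted p = 0.406 in limma), Eno1 at -0.79 and Egln3 at -0.64. After quantile normalization Gpi1 was at -0.07, P4ha1 at -0.26 and Egln3 at -0.67. The median of the 34 was then -0.02 after median-of-ratios scaling and -0.08 after quantile normalization.

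With both acids, Adm stood higher, averaging 7.15 ± 1.79 TPM with the combination against 3.87 ± 0.454 TPM in control (SD), a log2 fold change of 0.71 ± 0.20 (SE), with 34 of 36 pairs of libraries on that side. Vegfa at -0.89 ± 0.27, Egln3 at -1.20 ± 0.39 and P4ha1 at -0.55 ± 0.21 stood lower, with the combination above control in 2, 6 and 5 of 36 pairs. Unadjusted p-values were 0.00183 for Adm, 0.00301 for Vegfa, 0.00568 for Egln3 and 0.014 for P4ha1, and the limma adjusted p-values of 0.24, 0.26, 0.292 and 0.356 did not pass (n = 6 per group). Of the 34, at an unadjusted p under 0.05, 1 was higher (Adm) and 4 were lower (Vegfa, Egln3, P4ha1 and Ldhb), where 6.20% and 4.10% of all tested genes were; at an adjusted p under 0.05 the counts were 0, as over all genes (0%). Below 0 lay 30 of the 34, against 65.9% of all genes, and 27 of the 34 lay below the median of all genes. Their median was -0.29, beside -0.12 for all genes, and it was -0.19 after median-of-ratios scaling and -0.27 after quantile normalization. Without combination replicate 5 the median was -0.25, beside -0.18 for all genes, 26 of the 34 lay below 0, and 21 lay below the median of all genes. Adm was then at 0.73, Vegfa at -0.96, Egln3 at -0.83 and P4ha1 at -0.41, and none passed. Markers of other cell types differed as well: leukocyte sums ran from 46.1 to 555.1 TPM with the combination (median 125.1) and from 33.4 to 73.6 TPM in control (median 64.9). Adipocyte sums ran from 590.8 to 9797 TPM with the combination (median 1626) and from 301 to 1034 TPM in control (median 729.3). Endothelium sums averaged 149.6 ± 51.9 TPM with the combination (median 144.8) and 101.3 ± 19.0 TPM in control (median 94.9; SD, n = 6 each). Combination replicate 5 was the highest library for each of these sums, with 241 TPM for endothelium. Some other combination libraries lay within the control range, such as replicate 6 for leukocytes and replicate 3 for adipocytes and endothelium (110 TPM). The part of these markers in the fold changes was not tested. Without control replicate 3, 8 of the 34 had an unadjusted p under 0.05. By role, the lowest and highest were -0.55 (Slc2a3) and -0.11 (Slc2a1), -0.72 (Pfkm) and 0.71 (Pfkfb3), and -0.99 (Pgam1) and -0.25 (Pkm) along the pathway. Further on they were -0.96 (Ldhb) and -0.10 (Ldha), -1.20 (Egln3) and -0.13 (Hif1a), and -0.89 (Vegfa) and 0.71 (Adm). Apart from Egln3, Vegfa and Adm, these extremes are given with combination replicate 5 only. Pfkm was at 12.3 TPM in that library and at 416 to 822 TPM in the other combination libraries. Ldhb was at 47.2 TPM there and at 217 to 465 TPM in the others.

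**Figure D3:**
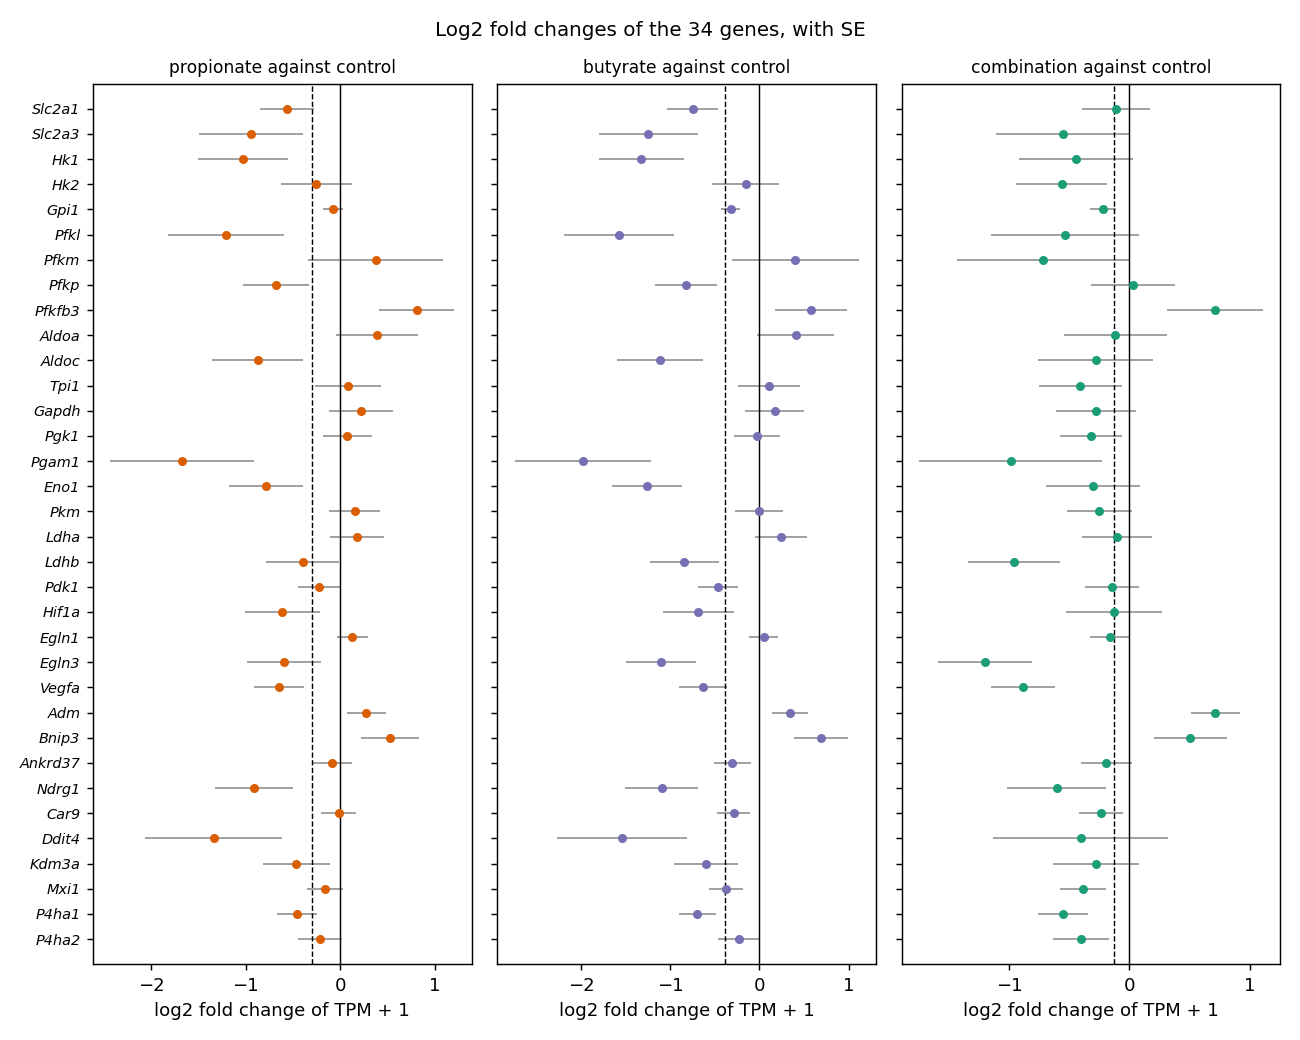
Log2 fold change of TPM + 1 (horizontal axis) of the 34 genes (vertical axis, in order of role) in propionate, butyrate and the combination, each against control. Points are estimates and bars 1 SE (n = 6 per group), the solid line marks 0 and the dashed line the median of all 15163 tested genes, at -0.30, -0.38 and -0.12; Pgam1 is lowest with propionate and with butyrate, and Adm and Pfkfb3 lie highest with the combination.

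The 3 comparisons with control share the same control libraries, so the values of a gene in them are not independent. Side by side, Vegfa was at -0.65 with propionate, -0.63 with butyrate and -0.89 with the combination. Adm was at 0.28 with propionate, 0.34 with butyrate and 0.71 with the combination. Pgam1 was at -1.67 with propionate, -1.98 with butyrate and -0.99 with the combination. The counts of 0 after adjustment did not hold in every fit: with weights estimated per library in limma, 26 of the 34 passed with propionate, 22 with butyrate and 17 with the combination, each against control, where 11434, 10256 and 5786 of the 15163 tested genes passed.

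Combination against propionate asked what adding butyrate did, if propionate was given alike in both groups, which the labels do not state. Adm was higher at a log2 fold change of 0.44 ± 0.20 (SE), Pfkp at 0.71 ± 0.35 and Slc2a1 at 0.45 ± 0.29, while Egln1 was at -0.29 ± 0.16. The unadjusted p-values were 0.0412 for Adm, 0.053 for Pfkp, 0.126 for Slc2a1 and 0.0956 for Egln1, with adjusted p-values in limma of 0.554, 0.567, 0.642 and 0.615 (n = 6 per group). Of the 34, at an unadjusted p under 0.05, 1 was higher and 0 lower, where 8.43% and 0.429% of all genes were, and 0 of the 34 passed when adjusted, as over all genes (0%). Above 0 lay 14 of the 34, against 76.9% of all genes, with a median of -0.10 beside 0.19. Without combination replicate 5 the median was -0.06, beside 0.12, and Adm was at 0.45, Pfkp at 0.46, Slc2a1 at 0.31 and Egln1 at -0.17. Median-of-ratios scaling put Adm at 0.22, Pfkp at 0.49, Slc2a1 at 0.24, Egln1 at -0.54 and the median of the 34 at -0.34, and quantile normalization put them at 0.17, 0.47, 0.19, -0.46 and -0.26. Without propionate replicate 3 or 4, 6 or 4 of the 34 had an unadjusted p under 0.05, and without propionate replicate 2, 5 or 6 or combination replicate 2 or 3, 0 had. Pfkm was lowest at -1.09 and Ddit4 highest at 0.94, and both values are given with combination replicate 5 only. Pfkm was at 12.3 TPM in that library and at 416 to 822 TPM in the other combination libraries. Ddit4 was at 92.4 TPM there and at 8 to 68.5 TPM in the others.

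Combination against butyrate asked what adding propionate did, if butyrate was given alike in both groups, which the labels do not state. Eno1 at a log2 fold change of 0.96 ± 0.39 (SE), Pfkp at 0.85 ± 0.35 and Slc2a1 at 0.64 ± 0.29 were above butyrate alone in 32, 30 and 30 of 36 pairs of libraries, and Adm at 0.38 ± 0.20 in 26. Unadjusted p-values of 0.0222, 0.0228, 0.0354 and 0.0767 became 0.317, 0.317, 0.317 and 0.337 when adjusted in limma (n = 6 per group). Before adjustment, at a p under 0.05, 3 of the 34 were higher and 0 lower, where 14.6% and 0.930% of all genes were, and the adjusted counts were 0, as over all genes (0%). Above 0 lay 19 of the 34, against 81.6% of all genes, with a median of 0.11 beside 0.30. The median turned to -0.20 after median-of-ratios scaling and -0.16 after quantile normalization, which put the median of all genes at 0.02 and 0.01. Median-of-ratios scaling put Eno1 at 0.61, Pfkp at 0.53, Slc2a1 at 0.33 and Adm at 0.07, and quantile normalization put them at 0.75, 0.52, 0.30 and 0.04. Without combination replicate 5, Eno1 was at 0.74, Pfkp at 0.60, Slc2a1 at 0.50 and Adm at 0.39, and 0 of the 34 had an unadjusted p under 0.05. It was 7 of the 34 without combination replicate 1 and 5 without combination replicate 6.

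Butyrate against propionate set the acids, which differ in chain length, side by side. The labels state no dose for either, so a match of doses is not known. Gpi1 was lower with butyrate, at a log2 fold change of -0.25 ± 0.11 (SE), with a 95% interval of -0.47 to -0.02, and exceeded propionate in 2 of 36 pairs of libraries. The next smallest p-values belonged to Car9 at -0.27 ± 0.18 (95% interval -0.65 to 0.11), Egln3 at -0.50 ± 0.39 (-1.31 to 0.31) and Eno1 at -0.47 ± 0.39 (-1.28 to 0.34). The unadjusted p of Gpi1 was 0.0322, and each of the 4 had an adjusted p of 1 in limma (n = 6 per group). Before adjustment, at a p under 0.05, 1 of the 34 was lower and 0 higher, where 0.541% and 0.165% of all genes were, and 0 passed when adjusted, as over all genes (0%). Below 0 lay 26 of the 34, against 70.3% of all genes, with a median of -0.18 beside -0.09. Gpi1 was at -0.15 after median-of-ratios scaling and -0.11 after quantile normalization, and its unadjusted p was not under 0.05 in either, nor without propionate replicate 2 or 6 or butyrate replicate 2 or 6. These intervals span differences of over 1 log2 unit for Egln3 and Eno1, and a p that misses the threshold does not show that the acids act alike.

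The interaction asked whether the log2 fold change of the combination departed from the sum of those of both acids. It was taken as the combination less propionate, from which butyrate less control was subtracted. It presumes that each acid was given alike alone and in the combination, which the labels do not state. Eno1 at 1.74 ± 0.55 (SE), Pfkp at 1.53 ± 0.49, Slc2a1 at 1.20 ± 0.40 and Hk1 at 1.91 ± 0.67 had the smallest p-values, 0.00445, 0.00504, 0.00681 and 0.00959, each with an adjusted p of 0.128 in limma (n = 6 per group). Before adjustment, at a p under 0.05, 10 of the 34 were above 0 and 0 below, where 34.8% and 0.950% of all genes were, and 0 passed when adjusted, as over all genes (0%). Above 0 lay 23 of the 34, against 83.7% of all genes, with a median of 0.24 beside 0.62. That median turned to -0.37 after median-of-ratios scaling and -0.14 after quantile normalization. Eno1 was then at 1.02 and 1.35, Pfkp at 0.87 and 0.79, Slc2a1 at 0.57 and 0.45, and Hk1 at 1.24 and 1.18, in that order of the scalings. Without combination replicate 5 the median was 0.31, beside 0.52 for all genes, and 10 of the 34 had an unadjusted p under 0.05. The values of Eno1, Pfkp, Slc2a1 and Hk1 are given with that library only. It held the highest level of any library for Eno1 (569 TPM) and Pfkp (41.7 TPM). Without propionate replicate 3, one of the propionate libraries rich in mesothelium markers, 11 of the 34 passed above 0, where 37.1% of all genes passed, and with the replicate block by library number 12 did, where 35.8% passed.

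The share of one form within its enzyme family is the same whatever common factor scales a library. Shares were taken for 7 families and compared in 6 pairs of groups, 42 two-sided exact permutation tests, in which 6 against 6 can give no p below 0.00216. All 5 with an unadjusted p under 0.05 set butyrate against control, and 0 passed after Benjamini-Hochberg adjustment over the 42 (smallest adjusted p = 0.25). Ldha held 82.0 to 90.8% of lactate dehydrogenase with butyrate (mean 87.7 ± 3.29%) and 58.9 to 89.9% in control (76.2 ± 10.3%; SD, n = 6 each; exact permutation p = 0.0195). Hk2 held 75.3 to 93.7% of the hexokinase pair with butyrate (87.8 ± 6.61%) and 55.6 to 97.4% in control (71.9 ± 14.2%; exact permutation p = 0.0455). Pfkm held 94.0 to 98.6% of phosphofructokinase with butyrate (97.1 ± 1.70%) and 74.7 to 98.7% in control (89.0 ± 8.47%; exact permutation p = 0.0238). In each of these families the butyrate libraries were more closely spaced than the control libraries, and each lay above the control mean. Egln3 went the other way, with 27.1 to 40.9% of the pair with Egln1 with butyrate (32.7 ± 5.81%) and 33.1 to 65.4% in control (52.1 ± 11.9%; exact permutation p = 0.00866). Aldoa held 99.99 ± 0.00828% of its pair with butyrate and 99.94 ± 0.0561% in control (exact permutation p = 0.0195). Slc2a1 took 74.8% of the transporter pair with butyrate and 63.2% in control (exact permutation p = 0.0909). P4ha1 took 61.7% of its pair with butyrate and 68.7% in control (exact permutation p = 0.0541). The muscle sum averaged 103648 ± 16702 TPM with butyrate and 77410 ± 31983 TPM in control, and the mesothelium sum 129.6 ± 130.5 TPM with butyrate and 581.6 ± 354.4 TPM in control; their part in these shares was not tested.

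**Figure D4:**
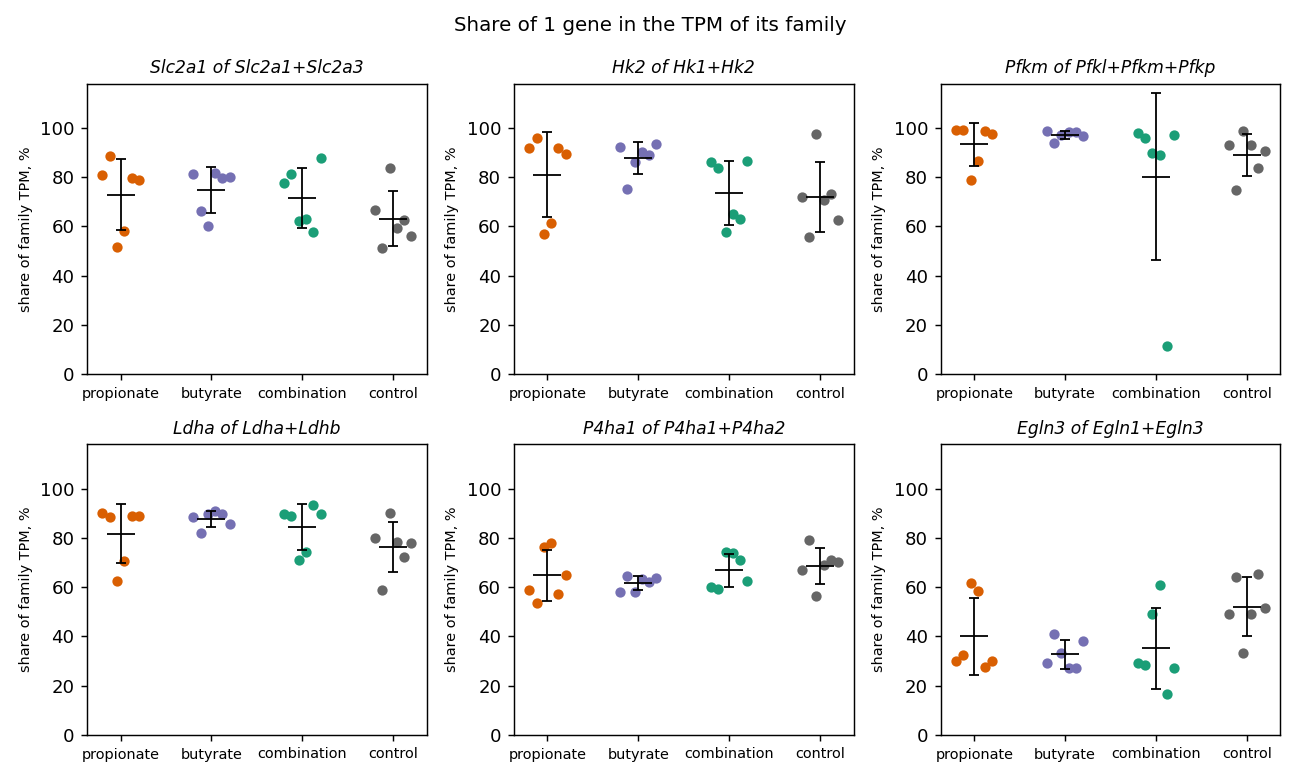
Share of 1 gene in the TPM of its family, in percent (vertical axis, from 0), for 6 of the 7 families in each library by group. Points are libraries, lines means and bars 1 SD (n = 6), which can pass 100% where a library lies far off; the Pfkm share of combination replicate 5 lies at 11.6%, and the butyrate points of Hk2, Pfkm and Ldha all lie above the control mean.

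Propionate and the combination spread more widely than butyrate in the Pfkm and Egln3 shares. The Pfkm share averaged 93.3 ± 8.58% with propionate and 80.3 ± 33.9% with the combination, where replicate 5 held 11.6% and the other 5 libraries 88.9 to 98.0%. The Egln3 share lay between 27.5 and 61.6% with propionate and averaged 35.2 ± 16.5% with the combination, against 52.1 ± 11.9% in control (exact permutation p = 0.182 and 0.0736). Without replicate 5 the Egln3 share of the combination was 38.9 ± 15.3% (SD, n = 5; exact permutation p = 0.147 against control). The smallest unadjusted p outside the comparison of butyrate and control was 0.0541, for Hk2, which held 73.6 ± 13.1% with the combination and 87.8 ± 6.61% with butyrate (exact permutation test, SD, n = 6 each). Without replicate 5 the Hk2 share of the combination was 75.8 ± 13.4% (SD, n = 5; exact permutation p = 0.0974 against butyrate).

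Other genes of the same pathways gave the setting. Of 18 further glycolysis genes, 15 reached the level for testing, and 0 of the 15 passed in any comparison with control. Their medians were 0.18 with propionate, 0.22 with butyrate and -0.20 with the combination, with 9, 10 and 6 genes above 0. Of 27 further hypoxia genes, Hif3a did not reach that level, and 0 of the 26 tested passed. Their medians were -0.25, -0.33 and -0.21, with 1, 2 and 8 genes above 0. Over all 15163 tested genes 0 passed as well, and the medians were -0.30, -0.38 and -0.12. Of all genes, 79.3%, 78.8% and 65.9% lay below 0. The genes of these other lists with the smallest p with propionate were Pdgfb, a platelet-derived growth factor, at -0.87 ± 0.32, Loxl2, a collagen cross-linking oxidase, at -1.14 ± 0.51, and Ero1a, an oxidase of protein folding, at -0.90 ± 0.43. With butyrate they were Pdgfb at -1.01 ± 0.32, Kdm4b, a histone demethylase, at -0.50 ± 0.16, and Arnt, the constant partner of HIF, at -0.35 ± 0.14. With the combination they included Plod2, a collagen lysyl hydroxylase, at -1.26 ± 0.47, and Loxl2 at -1.19 ± 0.51 (log2 fold change ± SE, n = 6 per group). The values of the combination are given with replicate 5 only, where Plod2 was at 4.15 TPM, the lowest of its group. Among the further glycolysis genes the lowest with both single acids was Pdk3, a pyruvate dehydrogenase kinase, which averaged 11.7 ± 15.9 TPM with propionate, 5.68 ± 5.14 with butyrate, 10.9 ± 8.78 with the combination and 22.9 ± 14.6 in control (SD, n = 6 each).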

How the data were processed

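Illumina stranded libraries of polyadenylated RNA were made from TRIzol extracts, per the labels' protocols. The submitters' processing notes name fastp, HISAT2, StringTie and the build mm39; for none of them is a version or setting given in the sources used here, nor is the order or the annotation. The authors deposited 1 table of TPM with 149132 transcript rows, in which each library sums to 1000000. Because TPM is a share, a gene that takes more lowers the others, and a depth cannot be read from it. Rows carry gene names without transcript identifiers; 1001 rows with no name (0.174 to 0.47% of TPM) were left out. TPM was summed by gene name. Levels of genes with close copies, such as Gapdh with its many pseudogenes, are uncertain if reads were split among the copies.

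All fold changes are on the log2(TPM + 1) scale; the pseudocount of 1 understates changes of low genes. One limma 3.58.1 fit (trend and robust moderation, R 4.3.3) over 24 libraries gave 7 comparisons, with two-sided p-values adjusted by Benjamini-Hochberg over 15163 genes, those at 1 TPM or more in 6 or more libraries; the threshold was 0.05. Family shares were compared by exact permutation, with every arrangement enumerated, and the enumeration was checked against scipy 1.17.1. Both tests were checked on simulated data, and groups follow the treatment labels. The 34 genes, the other lists and the tests were chosen with earlier results of these data known. Named genes were the 4 of smallest p in each comparison between groups, the members of each enzyme family, the lowest and highest of each role and, of the other lists, the 3 of smallest p against control. Some genes of those lists are not reported here.

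Alternatives were a pseudocount of 0.1, no filter, a stricter filter (5 TPM), quantile normalization, median-of-ratios scaling, weights per library, a fit of the compared groups alone, plain moderation, a replicate block, log2 ratios in place of shares, and leaving out each library in turn.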

Additional observations from a re-analysis of the deposited data

Results flagged for a closer look

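In groups of 6, a library was singled out where its gap to the nearest other, over the whole range of the group, passed Dixon's 95% critical value; chance alone does this in about 1 in 20 groups. Of 164 groups screened, over the 34 genes and 7 family shares in 4 groups each, 7 were singled out, which is close to that rate. Hk2 had such a library in 3 groups: propionate replicate 2 at 160.3 TPM, with the others at 47.5 to 72.0 TPM, butyrate replicate 6 at 166.3 TPM, with the others at 53.0 to 91.1 TPM, and control replicate 3 at 318.3 TPM, with the others at 50.4 to 104 TPM. Pfkp stood at 41.67 TPM in combination replicate 5, with the others at 9.69 to 19.5 TPM. Adm stood at 8.01 TPM in butyrate replicate 6, with the others at 4.15 to 5.30 TPM. In combination replicate 5 the Pfkm share was 11.59%, with the others at 88.9 to 98.0%, and the Aldoa share 99.57%, with the others at 99.93% or more.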

How the results depend on the processing

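Depth is unknown, so counting error could not be set beside the spread, and libraries within each group differed in tissue make-up. With weights estimated per library, 26 of the 34 genes passed for propionate against control (11434 genes in all), 22 for butyrate against control (10256), 17 for the combination against control (5786), 11 for the combination against propionate (5026), 0 for the combination against butyrate (572) and 24 for the interaction (10982). Median-of-ratios scaling and quantile normalization called 46 and 41 genes for the combination against control, and 0 of the 34. Leaving out 1 library at a time gave 0 to 5654 genes and 0 to 14 of the 34 for butyrate against control (the highest without control replicate 3), and 0 to 5619 genes and 0 to 11 of the 34 for the interaction (the highest without propionate replicate 3). It gave 0 to 2 genes for the combination against control (without combination replicate 6) and 0 to 1 for the combination against butyrate (without combination replicate 6 or butyrate replicate 6). The cause was not tested. Without control replicate 3, the shares of Hk2, Pfkm, Aldoa, Ldha, P4ha1 and Egln3 passed for butyrate against control, at adjusted p-values of 0.0182 to 0.0303 (exact permutation).

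The labels do not say that a replicate number marks a shared animal, batch or day. Same-numbered samples of different groups deviated with a correlation of -0.87 to 0.74 for the numbers in the titles (36 pairs, median -0.07, with -0.02 for other pairs) and -0.39 to 0.70 for those in the library names (27 pairs, median 0.24, with -0.06 for other pairs). It was over 0.1 in 16 of the 36 and 18 of the 27, and 3 and 2 of the 24 libraries correlated best with one of their own number, so neither number was taken to pair the samples, and a pairing by library number was not settled. With the replicate block by library number, 7903 genes and 19 of the 34 passed for butyrate against control, 5426 and 12 for the interaction, and 5 and 0 for the combination against butyrate; with the block by title number 0 passed in any comparison.

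Directions that turned were Gpi1 in butyrate against control (0.15 with median-of-ratios scaling) and Eno1 in butyrate against propionate (0.0038 with weights). Of the family shares, as log2 ratios the combination against propionate turned for Slc2a1 (0.0621), and against control for Hk2 (-0.12) and Aldoa (0.17). With 1 library left out, in percentage points, the combination minus control ranged from -1.54 to 6.82 for Hk2, -12.3 to 4.99 for Pfkm, -0.0529 to 0.0332 for Aldoa and -4.44 to 0.0859 for P4ha1. The combination minus propionate ranged from -5.58 to 1.75 for Slc2a1, -16.6 to 0.685 for Pfkm, -0.0823 to 0.0029 for Aldoa, -0.927 to 5.58 for Ldha and -0.234 to 4.59 for P4ha1. The combination minus butyrate ranged from -2.60 to 6.26 for Egln3, and butyrate minus propionate from -2.31 to 5.02 for Slc2a1. For Pfkm and Aldoa the sign turned without combination replicate 5 alone. Of the fold changes of named genes under all alternatives, 789 kept their sign and side of the threshold, 24 passed it in the same direction and 2 turned.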

Other observations

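In combination replicate 5 the leading transcript rows of some of the 34 genes held their lowest or highest share of any library. For Pkm, whose splice forms differ between muscle and most other tissues, the row that was most abundant overall held a median of 65.4% of the gene's TPM over all libraries and 21.7% in combination replicate 5. For Pfkm the corresponding row held a median of 70.7% and was listed at 0% there. For Aldoa it held a median of 44.9% and 19.9% there, and for Eno1 a median of 73.9% and 98.6% there. The row led in 21 of the 24 libraries for Pkm, 22 for Aldoa and 23 for Pfkm and for Eno1. For Pkm, Aldoa and Eno1 another row thus led in some other library too. The rows carry no transcript identifier, so which splice form each one is was not analysed here.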
